A study of Mus musculus with 12 samples.

Results

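Imprinted genes are expressed mainly or only from the allele inherited from one parent. The 38 genes followed here were taken from a list of mouse genes with parent-of-origin expression, by gene symbol and with no measured value in the rule. The list was chosen with earlier results of these data known, so shares set beside those of all genes describe this list only. Of these, 32 had a row among the 18903 genes of the count table, and all 32 had enough counts to be tested. The other 6 (*Phlda2*, *Rtl1*, *Usp29*, *Magel2*, *Asb4* and *Slc22a3*) had no row and were not analysed here.

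At an imprinted domain, a control region carries DNA methylation set in the egg or the sperm and kept in the body's cells, so that genes around it are read from the maternal or the paternal copy. Many genes silenced on the paternal copy restrain fetal growth, and many silenced on the maternal copy promote it. Several of them are transcribed at high levels in embryonic mesenchyme and in meningeal cells, and some stay active in glia and neural progenitors. A count of reads per gene adds both alleles, so that no statement on allele of origin can be read from these data.

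The libraries came from cultured primary astrocytes of mouse brain taken at postnatal days 1, 6 and 8 (P1, P6, P8). Each label had 2 libraries per age. Per the study's methods, these are the ages of the mice at dissection, and the cells were then grown in culture until confluent. A step with age therefore compares separate cultures and does not follow the same cells. WT mice carried hGFAP-cre with *Rack7* +/+, and *Rack7*-cKO mice carried the same transgene with *Rack7* fl/fl, so that both groups expressed Cre. The Cre is driven by a human GFAP promoter that is active in embryonic neural stem cells, and cells of other lineages in a flask are not its target. The cultures grew from dissociated brain tissue freed of meninges, and the flasks were shaken to take off microglia and oligodendrocytes. The labels call the libraries biological replicates without saying whether they came from separate animals or flasks, and the p-values therefore measure only the spread between these libraries.

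Some facts of the libraries touched every result. *Zmynd8*, the gene of RACK7, was higher in the libraries labelled cKO than in those labelled WT at each time point (log2 differences of 0.65, 1.04 and 0.70 in order of age, each ± 0.05 (SE)), and a count over the whole gene does not test the loss of the floxed exons. The groups are therefore named by their labels throughout. All 4 P6 libraries had *Xist*, the RNA that coats the inactive X chromosome, at 825 to 1436 counts per 1000000 (CPM) and at most 4 counts on *Ddx3y*, *Eif2s3y*, *Kdm5d* and *Uty* together, whereas the 8 libraries of P1 and P8 had 14755 to 24720 counts on these Y-linked genes and *Xist* at 0.915 CPM or less. Sex and age cannot be told apart in any step that involves P6, while both labels of 1 time point matched in these genes. The 10 astrocyte markers were all detected, and their summed level was 1444 to 2296 CPM in 10 libraries and 708 and 717 CPM in the P8 libraries labelled cKO. A fibroblast and meninges list (*Col1a1* its most abundant gene) summed to 358 and 373 CPM in P1 WT, 2327 and 2366 in P1 cKO, 6507 and 6563 in P6 WT, 2413 and 2591 in P6 cKO, 24513 and 24316 in P8 WT, and 8072 and 8322 in P8 cKO. A microglia list (*C1qa* its most abundant gene) summed to 1811 to 3904 CPM and was highest in P8 cKO. In such bulk samples, fewer cells of a type and less RNA per cell cannot be told apart.

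The promoters printed here belong to 5 of the members with the largest differences between labels at P6 or P8, and they are printed because methylated CpG pairs are the marks that imprinting uses. Each window runs from 250 bases before to 50 bases after an annotated start (RefSeq, GRCm38.p6), is written 5′ to 3′ on the gene's strand, and has its CpG pairs in capitals. *Plagl1* lies at chr10:13090582-13090881 on the plus strand, *Peg3* at chr7:6730370-6730669 on the minus strand, *Zim1* at chr7:6696383-6696682 on the minus strand, *Mest* at chr6:30737800-30738099 on the plus strand (of its windows, 1 of 2 overlapping ones with the most CpG pairs) and *Dio3* at chr12:110278980-110279279 on the plus strand.
Plagl1: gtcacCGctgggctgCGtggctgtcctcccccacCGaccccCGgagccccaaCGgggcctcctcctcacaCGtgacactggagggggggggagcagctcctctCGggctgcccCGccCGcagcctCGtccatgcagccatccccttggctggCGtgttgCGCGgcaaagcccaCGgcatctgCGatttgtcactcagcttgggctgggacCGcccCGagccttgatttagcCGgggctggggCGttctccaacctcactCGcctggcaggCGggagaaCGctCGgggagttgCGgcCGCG
Peg3: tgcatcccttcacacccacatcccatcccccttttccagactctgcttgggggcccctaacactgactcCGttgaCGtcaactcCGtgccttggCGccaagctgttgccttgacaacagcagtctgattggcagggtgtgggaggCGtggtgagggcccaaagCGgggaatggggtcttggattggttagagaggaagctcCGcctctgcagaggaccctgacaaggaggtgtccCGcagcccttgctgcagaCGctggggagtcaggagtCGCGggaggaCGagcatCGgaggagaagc
Zim1: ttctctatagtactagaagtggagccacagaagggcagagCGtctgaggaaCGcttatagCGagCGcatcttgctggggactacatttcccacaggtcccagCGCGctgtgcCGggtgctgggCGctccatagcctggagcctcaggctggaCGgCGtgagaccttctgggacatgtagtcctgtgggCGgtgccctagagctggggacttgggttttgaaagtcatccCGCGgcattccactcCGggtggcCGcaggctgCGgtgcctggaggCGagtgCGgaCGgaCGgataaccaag
Mest: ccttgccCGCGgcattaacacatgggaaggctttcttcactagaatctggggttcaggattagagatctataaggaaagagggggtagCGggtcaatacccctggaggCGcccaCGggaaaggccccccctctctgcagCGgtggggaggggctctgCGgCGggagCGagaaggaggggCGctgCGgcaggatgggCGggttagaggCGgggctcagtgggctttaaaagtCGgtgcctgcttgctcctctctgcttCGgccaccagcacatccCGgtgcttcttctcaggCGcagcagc
Dio3: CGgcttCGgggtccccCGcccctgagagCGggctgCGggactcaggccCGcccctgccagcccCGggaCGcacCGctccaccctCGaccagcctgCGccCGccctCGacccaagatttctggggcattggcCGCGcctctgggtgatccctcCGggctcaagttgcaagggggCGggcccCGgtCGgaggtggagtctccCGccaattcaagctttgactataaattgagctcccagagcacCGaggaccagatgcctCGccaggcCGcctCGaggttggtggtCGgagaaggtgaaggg

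The windows held 26 CpG pairs for *Plagl1*, 13 for *Peg3*, 20 for *Zim1*, 17 for *Mest* and 25 for *Dio3*. Over all 32851 promoter windows the median was 7 and the upper quartile 20. The 47 windows of 30 listed genes had a median of 13. *H19* had no window, and those of *Slc38a4*, which are not printed, held 5 each. The palindrome GGGGCCCC, letters that PLAGL1 is known to bind, occurred in 1.08% of all windows and in 3 of the 47, those of *Peg3*, *Usp29* and *Ppp1r9a*. The windows of *Peg3* and *Usp29* share 263 bases, so that these count as 1 occurrence. The GC box GGGCGG, searched on both strands, occurred in 35.7% of all windows and in 22 of the 47 (4 copies in *Dio3*, 2 in *Plagl1*, 1 each in *Zim1* and *Mest*, none in *Peg3*). TATAAA occurred in 13.6% of all windows and in 12 of the 47, *Dio3* among them. The libraries measured RNA and not methylation, so these letters describe the windows only.

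*Mest* and *H19*, which were called at all 3 ages, each carry a microRNA inside the gene. These sequences are RefSeq mature forms, with the seed (bases 2 to 8) in capitals, and the counts described here are those of the host genes.
mmu-miR-675-5p, inside H19: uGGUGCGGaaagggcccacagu
mmu-miR-335-5p, inside Mest: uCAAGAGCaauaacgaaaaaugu

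The first question was how the labels differed within a time point. A member was called when the edgeR quasi-likelihood test gave a Benjamini-Hochberg adjusted p below 0.05 over all 17938 genes tested and the fold change was at least 1.5. At P1, 6 of the 32 members were called, all higher in cKO, where 4.9% of all genes were called in either direction and 4.01% higher. None was called lower at P1, although 1 had an unadjusted p below 0.05 and a lower value, and DESeq2 called 1 lower (*Commd1*). At P6, 3 members were called higher and 8 lower, against 13.5% of all genes in either direction, 7.16% higher and 6.38% lower. At P8, 5 were called higher and 10 lower, against 19.6%, 11.2% and 8.37%. The share of members called thus went from 18.8% through 34.4% to 46.9% with age. In the same order, the median log2 difference of the 32 was 0.07, -0.03 and -0.20, against 0, 0 and 0.01 for all genes, with single members as far as -8.90 at P6 and 3.70 at P8. In all, 18 members (56.2%) were called at 1 or more time points, against 26.2% of all genes, and 3 of them (*H19*, *Grb10* and *Mest*) at all 3 ages, against 2.35% of all genes. In opposite directions at different ages, 5 were called (*H19*, *Grb10*, *Slc38a4*, *Dio3* and *Rian*), 15.6% of members against 2.62% of all genes.

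**Figure D1:**
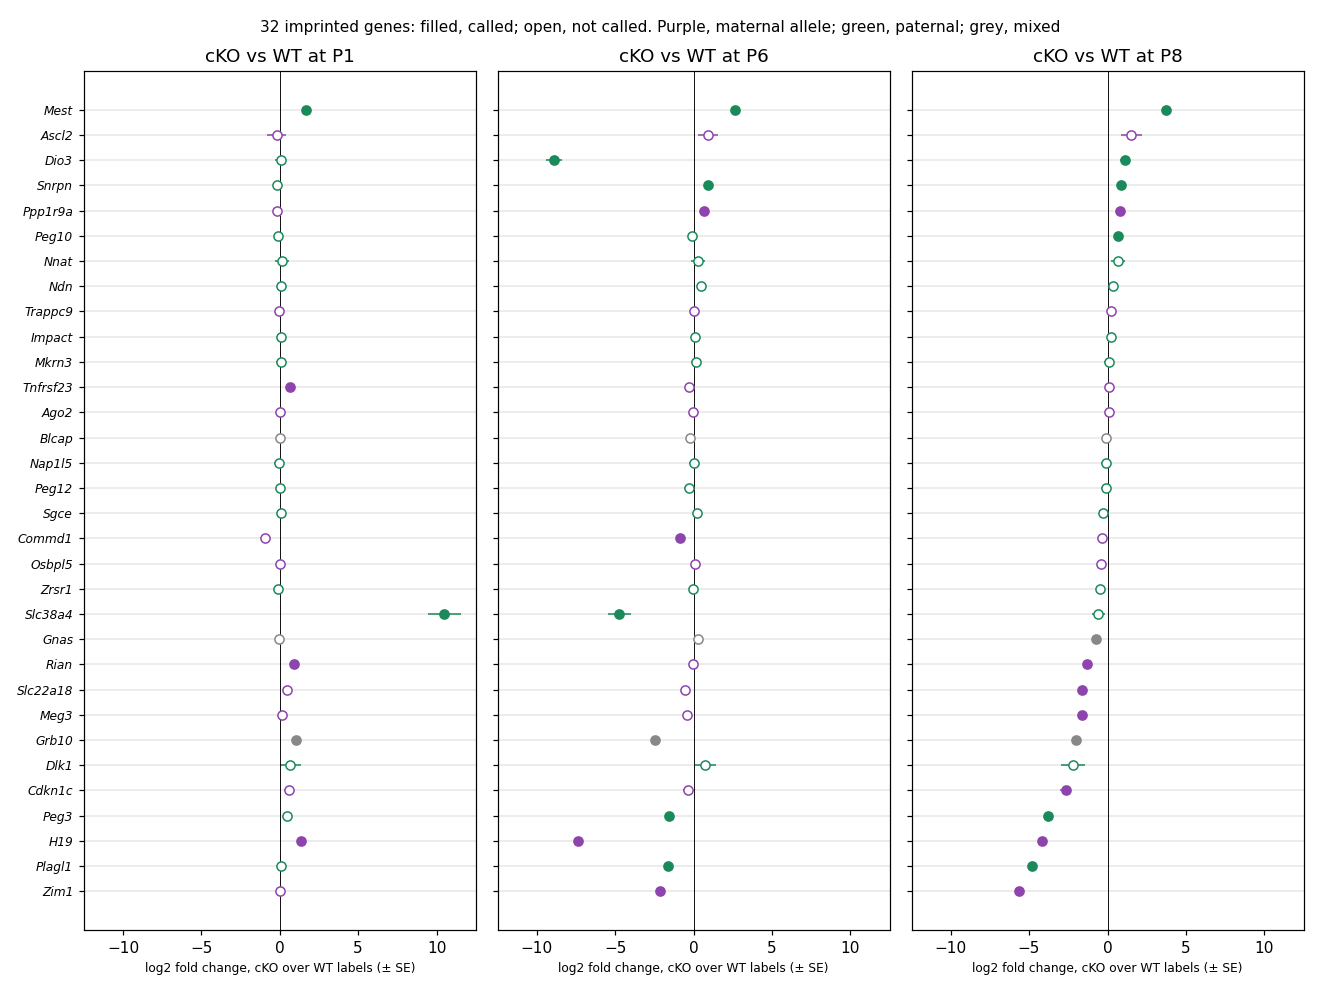
Log2 fold change (x axis, cKO over WT labels, with its SE) of the 32 tested imprinted genes (y axis, ordered by the P8 value) at P1, P6 and P8, with filled points for called genes and colours for the allele that is usually expressed. At P1 the 6 called members lie to the right of 0, at P6 and P8 8 and 10 lie to the left, and *Mest* lies to the right in each panel. The P1 value of *Slc38a4* rests on 0 counts in the WT libraries and depends on the fit.

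*H19* (ENSMUSG00000000031, chromosome 7, 142575529 to 142578143, GRCm38) makes a long noncoding RNA from the maternal copy and shares its control region with *Igf2*, the fetal growth factor expressed from the paternal copy. *H19* was at 8.33 and 10.6 CPM in P1 WT and 23.1 and 24.9 in P1 cKO, at 186 and 189 in P6 WT and 1.43 and 0.856 in P6 cKO, and at 826 and 883 in P8 WT and 48.1 and 45.8 in P8 cKO. The libraries of the 2 labels did not overlap at any time point, and the order turned between P1 and P6. *H19* rose in cKO at P1 (log2 fold change 1.33 ± 0.15 (SE), adjusted p = 0.000699) and was lower at P6 (-7.35 ± 0.21, adjusted p = 3.19e-08) and at P8 (-4.19 ± 0.17, adjusted p = 1.27e-07). *Igf2*, which was not among the 38, was at 0.603 and 9.81 CPM in P1 WT and 233 and 235 in P1 cKO, at 1038 and 1062 in P6 WT and 3.87 and 2.96 in P6 cKO, and at 5075 and 3058 in P8 WT and 46.8 and 41.2 in P8 cKO. Its log2 fold changes were 5.44 ± 0.81 (adjusted p = 0.00319), -8.26 ± 0.92 (adjusted p = 0.000178) and -6.53 ± 0.83 (adjusted p = 0.000258). Both genes of the domain thus moved the same way at each time point, and the copies they were read from were not measured.

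*Grb10* (chromosome 11, 11930508 to 12038683) encodes an adaptor that dampens signalling from the insulin and IGF receptors. It was at 48.1 and 48.1 CPM in P1 WT and 94.4 and 101 in P1 cKO, at 574 and 536 in P6 WT and 107 and 98.0 in P6 cKO, and at 1391 and 1388 in P8 WT and 333 and 344 in P8 cKO. As with *H19*, the labels did not overlap and the order turned after P1. In order of age, the log2 fold changes were 1.02 ± 0.05 (adjusted p = 4.02e-06), -2.44 ± 0.05 (adjusted p = 8.39e-09) and -2.04 ± 0.05 (adjusted p = 1.31e-08). In the cKO libraries the level was nearly the same at P1 and P6 and then rose, while in WT it climbed at both steps.

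The zinc finger genes *Plagl1*, *Peg3* and *Zim1* were lower in cKO at P6 and P8. *Plagl1* (chromosome 10, 13060504 to 13131694) encodes a transcription factor that slows proliferation and regulates other imprinted genes. Its levels were alike at P1, at 105 and 117 CPM in WT and 113 and 118 in cKO, and then parted to 122 and 113 in P6 WT against 35.8 and 39.0 in P6 cKO, and to 611 and 633 in P8 WT against 21.8 and 22.2 in P8 cKO. Its log2 fold change went from 0.05 ± 0.07 (adjusted p = 0.741) through -1.65 ± 0.07 (adjusted p = 2.97e-07) to -4.82 ± 0.08 (adjusted p = 1.45e-09). The P8 WT mean was 28.3 times the P8 cKO mean.

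*Peg3* (chromosome 7, 6703892 to 6730431), a paternally expressed zinc finger gene with roles in cell death and in maternal behaviour, was at 28.3 and 28.1 CPM in P1 WT and 39.4 and 38.6 in P1 cKO. It was at 114 and 97.3 in P6 WT and 33.9 and 38.2 in P6 cKO, and at 494 and 520 in P8 WT and 38.4 and 35.6 in P8 cKO. The cKO libraries thus stayed between 33.9 and 39.4 CPM at all ages, and the difference lay in the rise of WT. The fold change at P1 had an adjusted p of 0.0083 but stayed under 1.5-fold (0.47 ± 0.08 on the log2 scale), and *Peg3* was lower in cKO at P6 (-1.55 ± 0.09, adjusted p = 1.68e-06) and P8 (-3.78 ± 0.09, adjusted p = 8.92e-09). *Zim1* (chromosome 7, 6671269 to 6696450), its maternally expressed neighbour on the same strand, was at 1.21 and 1.28 CPM in P1 WT and 1.00 and 1.56 in P1 cKO, at 4.65 and 6.41 in P6 WT and 1.37 and 1.17 in P6 cKO, and at 56.8 and 82.0 in P8 WT and 1.64 and 1.18 in P8 cKO. *Zim1* overlapped between labels at P1, and was lower in cKO at P6 (-2.12 ± 0.28, adjusted p = 0.000457) and P8 (-5.63 ± 0.30, adjusted p = 9.25e-07). Again the level in cKO barely moved with age, between 1.00 and 1.64 CPM.

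The markers of fibroblasts and meninges also differed between labels. Of the 10 measured, 8 were called higher in cKO at P1, 8 lower at P6, and 7 lower and 1 higher at P8. The median log2 differences were 3.10, -2.27 and -1.58. Among all genes, 4.9%, 13.5% and 19.6% were called in either direction. *Dpt* was at 0.205 CPM or less in every library. In P6 cKO, where *H19* was lowest, the list summed to 2591 and 2413 CPM, against 2366 and 2327 in P1 cKO. Its genes split there, with *Lum* at 0 in both P6 cKO libraries and *Col1a1* at 1609 and 1479 CPM. From P1 to P6 in cKO, 6 of the 10 were called lower and 0 higher, against 10.4% and 11% of all genes. *Plagl1*, *Peg3* and *Zim1* did not share the P1 rise of that list to a call, and *Grb10*, *H19* and *Igf2* did. From P6 to P8 in cKO, 9 of the 10 markers were called higher, against 11.9% of all genes. *H19* and *Grb10* also rose at that step in cKO. *Plagl1* fell there from 35.8 and 39.0 to 21.8 and 22.2 CPM. *Peg3* was at 33.9 and 38.2 CPM and then 38.4 and 35.6, and *Zim1* at 1.37 and 1.17 and then 1.64 and 1.18. The part of fibroblasts and meningeal cells in the differences was not tested.

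**Figure D2:**
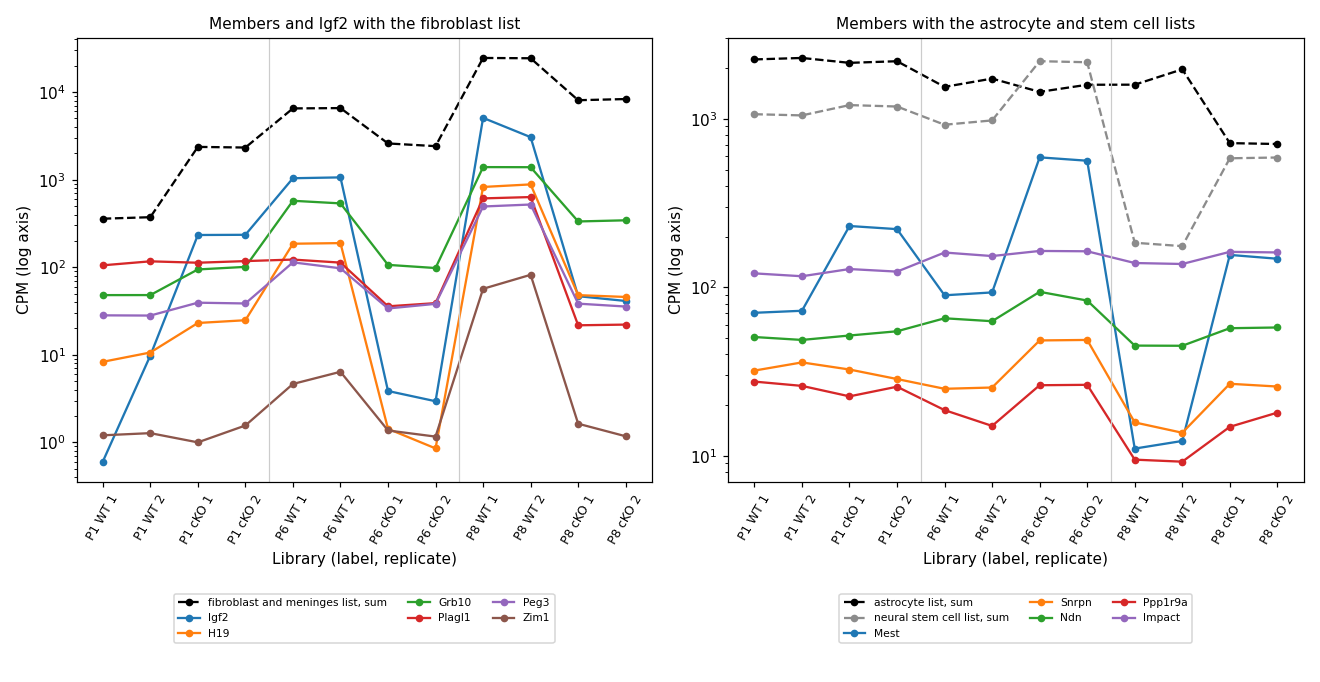
CPM (log axis) in each of the 12 libraries (x axis) of *Igf2* and 5 imprinted genes beside the summed fibroblast and meninges list (left), and of 5 imprinted genes beside the summed astrocyte and neural stem cell lists (right); lines join libraries for reading only. On the left *H19* and *Igf2* are lowest in P6 cKO or P1 WT and highest in P8 WT, as is the fibroblast sum of 24513 and 24316 CPM; on the right *Mest* and the stem cell sum are highest in P6 cKO and lowest in P8 WT.

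*Mest* (chromosome 6, 30723547 to 30748465), a paternally expressed gene of the alpha/beta hydrolase family that is abundant in embryonic mesoderm and progenitors, went the other way and was the member called higher at all 3 ages. It was at 70.6 and 72.6 CPM in P1 WT and 231 and 221 in P1 cKO, at 89.6 and 93.2 in P6 WT and 590 and 564 in P6 cKO, and at 11.03 and 12.2 in P8 WT and 156 and 148 in P8 cKO. The labels did not overlap at any age, and the distance widened from 3.16-fold through 6.31-fold to 13.03-fold. The log2 fold changes were 1.66 ± 0.06 (adjusted p = 3.12e-07), 2.66 ± 0.06 (adjusted p = 8.39e-09) and 3.70 ± 0.06 (adjusted p = 1.94e-09). *Mest* shares exon sequence with *Copg2*, and the sources used here do not give the strand setting of the counting. The summed neural stem cell list (*Nes*, the intermediate filament of progenitors, its most abundant gene) was 1047 and 1065 CPM in P1 WT and 1182 and 1206 in P1 cKO, 922 and 978 in P6 WT and 2165 and 2197 in P6 cKO, and 175 and 184 in P8 WT and 583 and 589 in P8 cKO. Of its 4 genes, 0 were called at P1 and 3 were called higher at each of P6 and P8. Among all genes, 4.01%, 7.16% and 11.2% were called higher in order of age. At P1, where *Mest* was called and 0 of these 4 genes were, the sum was still higher in both cKO libraries than in both WT libraries. The part of progenitors in the *Mest* differences was not tested.

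*Slc38a4* (chromosome 15, 96994820 to 97055956), a sodium-coupled amino acid transporter, was a rare transcript with a change of direction. It had no count in either P1 WT library and was at 2.53 and 2.76 CPM in P1 cKO, at least 124-fold higher when WT is set at a floor of 3 counts over the group. At P6 it was at 1.18 and 0.569 CPM in WT and at 0.0609 and 0 in cKO, 4 counts against 114, a cKO to WT ratio of 0.0356 (95% counting interval 0.00954 to 0.0937, counting error only). At P8 the labels were at 8.21 and 7.30 in WT and 4.24 and 6.15 in cKO, and the difference was not called (-0.58 ± 0.44 on the log2 scale, adjusted p = 0.366). The test gave an adjusted p of 0.000518 at P1 and 0.00194 at P6.

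**Figure D3:**
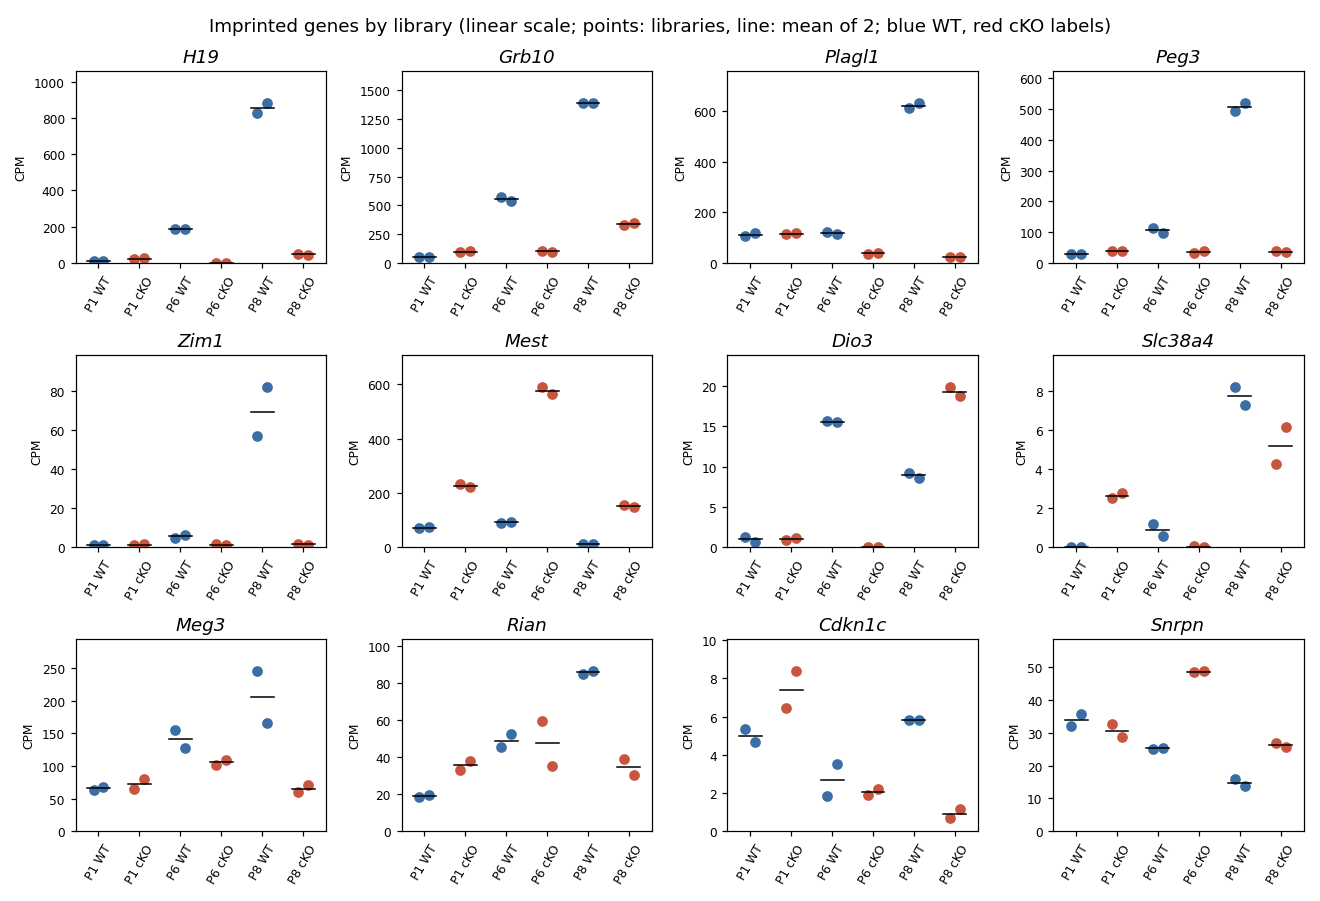
CPM (y axis, linear, from 0) of 12 imprinted genes by label and age (x axis), with 1 point per library and a line at the mean of 2; blue WT, red cKO. *H19*, *Grb10*, *Plagl1*, *Peg3* and *Zim1* are highest in P8 WT, with *H19* at 826 and 883 CPM there, while *Mest* and *Snrpn* are highest in P6 cKO.

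The Dlk1-Dio3 domain on chromosome 12 holds paternally expressed coding genes and maternally expressed noncoding RNAs under 1 control region. *Dio3* (110279068 to 110281097), the deiodinase that inactivates thyroid hormone, was at 1.27 and 0.664 CPM in P1 WT and 0.901 and 1.09 in P1 cKO, at 15.6 and 15.5 in P6 WT and 0 and 0.0622 in P6 cKO, and at 9.23 and 8.60 in P8 WT and 19.9 and 18.7 in P8 cKO. The labels overlapped at P1 and stood far apart at P6, where cKO had 4 counts and WT 2054, a cKO to WT ratio of 0.00198 (95% counting interval 0.000538 to 0.00507). At P8 the order was turned (1.11 ± 0.30 on the log2 scale, adjusted p = 0.0181), with adjusted p between 0.0642 and 0.0955 when any 1 of the 4 P8 libraries was left out.

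*Meg3* (109541001 to 109571726), a maternally expressed noncoding RNA linked to growth suppression, was at 63.5 and 68.3 CPM in P1 WT and 64.9 and 80.2 in P1 cKO, at 155 and 128 in P6 WT and 101 and 110 in P6 cKO, and at 245 and 165 in P8 WT and 60.2 and 70.4 in P8 cKO. Only the P8 difference was called (-1.65 ± 0.19, adjusted p = 0.000112). *Rian* (109603940 to 109661716), the noncoding host of a large set of small nucleolar RNAs and microRNAs, was at 18.6 and 19.6 CPM in P1 WT and 33.3 and 37.8 in P1 cKO, at 45.2 and 52.3 in P6 WT and 59.7 and 35.4 in P6 cKO, and at 85.0 and 86.4 in P8 WT and 38.9 and 30.5 in P8 cKO. *Rian* was higher in cKO at P1 (0.90 ± 0.22, adjusted p = 0.0322) and lower at P8 (-1.30 ± 0.22, adjusted p = 0.00132), with overlap at P6. The P1 call was lost without any 1 of the 4 P1 libraries, P8 WT replicate 1 or P8 WT replicate 2 (log2 0.80 to 0.98, adjusted p 0.0518 to 0.156). *Dlk1*, a membrane protein related to Notch ligands, was not called at any age. It was low, at 0.164 to 7.09 CPM, and its P8 value of -2.19 ± 0.77 had an adjusted p of 0.054, and 0.005 in DESeq2. *Meg3* and *Rian* were lower in P8 cKO together, while *Dio3* was higher there.

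Of the Kcnq1 domain on chromosome 7, 3 of the 5 tested members were called at 1 or more time points, against 26.2% of all genes. *Cdkn1c* (143458339 to 143461050), the cyclin-dependent kinase inhibitor p57 that stops the cell cycle, was at 5.33 and 4.67 CPM in P1 WT and 6.43 and 8.37 in P1 cKO, at 1.86 and 3.504 in P6 WT and 1.92 and 2.19 in P6 cKO, and at 5.82 and 5.83 in P8 WT and 0.668 and 1.14 in P8 cKO. It was lower in cKO at P8 (-2.68 ± 0.34, adjusted p = 0.00026), by 6.44-fold between the means. Of 7 proliferation markers, 1 was called higher and 1 lower in cKO at P8, against 11.2% and 8.37% of all genes. *Slc22a18*, an organic cation transporter-like protein, was at 5.52 and 5.06 CPM in P8 WT and 1.80 and 1.62 in P8 cKO (-1.63 ± 0.22, adjusted p = 0.000347), and at 0.897 to 4.13 CPM in the P1 and P6 libraries with no call. *Tnfrsf23*, a decoy receptor for the death ligand TRAIL, was at 16.0 and 17.5 CPM in P1 WT and 28.1 and 23.2 in P1 cKO (0.62 ± 0.10, adjusted p = 0.00484), and at 29.5 to 37.2 CPM in the P6 and P8 libraries with no call. Without P1 WT replicate 1 or P1 cKO replicate 1 its P1 difference was 0.55 or 0.47 and fell under 1.5-fold. *Osbpl5*, an oxysterol-binding protein, reached an adjusted p of 0.00529 at P8 with a difference of -0.43 ± 0.09, under 1.5-fold. *Ascl2*, a transcription factor of the placenta, was at 0.125 to 1.18 CPM and was not called. Its P8 value of 1.53 ± 0.66 became 2.75 (adjusted p = 0.0313) without P8 WT replicate 1.

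*Gnas*, the stimulatory G protein subunit of many hormone receptors, was among the most abundant members, at 506 and 517 CPM in P1 WT and 491 and 476 in P1 cKO, at 831 and 806 in P6 WT and 1043 and 930 in P6 cKO, and at 1184 and 1230 in P8 WT and 706 and 720 in P8 cKO. It was lower in cKO at P8 (-0.76 ± 0.05, adjusted p = 4.04e-06). At P6 it was higher by 0.27 ± 0.05, with an adjusted p of 0.00407 but under 1.5-fold. The gene row joins several transcripts with different imprints, which these counts do not separate.

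The Snrpn-Ndn domain, the mouse counterpart of the Prader-Willi region, was higher in cKO where it differed. *Snrpn*, which encodes the SmN splicing protein of neurons, was at 32.04 and 35.8 CPM in P1 WT and 32.5 and 28.5 in P1 cKO, at 25.0 and 25.4 in P6 WT and 48.4 and 48.7 in P6 cKO, and at 15.8 and 13.7 in P8 WT and 26.7 and 25.8 in P8 cKO. The labels overlapped at P1 and were apart at P6 (0.95 ± 0.10, adjusted p = 0.000106) and P8 (0.83 ± 0.10, adjusted p = 0.000152). *Ndn*, a MAGE family protein that restrains the cell cycle in neurons, was higher by 0.47 ± 0.07 at P6 (adjusted p = 0.000898) and 0.35 ± 0.07 at P8 (adjusted p = 0.00335), under 1.5-fold at both ages. *Mkrn3*, a RING finger protein, and *Peg12*, a GSK3-binding protein, ran between 0.947 and 4.98 CPM with no adjusted p below 0.05 between labels.

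In the Peg10-Sgce domain, *Ppp1r9a*, the actin-binding protein neurabin, was at 27.6 and 26.0 CPM in P1 WT and 22.5 and 25.7 in P1 cKO, at 18.7 and 15.0 in P6 WT and 26.2 and 26.4 in P6 cKO, and at 9.48 and 9.23 in P8 WT and 14.9 and 18.0 in P8 cKO. It was called higher at P6 (0.64 ± 0.13, adjusted p = 0.00578) and P8 (0.81 ± 0.13, adjusted p = 0.00112), and the P6 value was 0.49, under 1.5-fold, without P6 WT replicate 2. *Peg10*, derived from a retrotransposon and needed in the placenta, was at 58.3 to 66.2 CPM in the P1 libraries, 76.5 to 88.6 in the P6 libraries, and 21.5 and 20.8 in P8 WT against 33.0 and 33.8 in P8 cKO (0.66 ± 0.07, adjusted p = 8.08e-05). *Sgce*, epsilon-sarcoglycan of the membrane, was not called, and its P8 value was -0.28 ± 0.08 (adjusted p = 0.0304). For the *Snrpn*, *Ppp1r9a* and *Ndn* differences as well, the neural stem cell list moved in the same direction at P6 and P8. Of 9 listed neuron markers, 3 had a row, and *Rbfox3*, *Snap25*, *Dcx*, *Slc17a7*, *Gad1* and *Gad2* did not. Of the 3 measured, 1 was called higher at P1, 2 at P6 and 1 at P8 (medians 0.13, 1.00 and 0.55). Among all genes, 4.01%, 7.16% and 11.2% were called higher. The sum of the 3 was 85.2 and 113 CPM in P6 WT against 173 and 192 in P6 cKO. At P8 it was 70.6 and 90.2 in WT against 112 and 124 in cKO. *Map2*, the most abundant of the 3, ran from 54.8 to 172 CPM over the libraries. The part of progenitors and neurons in these differences was not tested.

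*Commd1*, a regulator of copper handling and NF-kappaB whose gene holds *Zrsr1* in an intron with shared exon sequence, was at 28.3 and 25.2 CPM in P1 WT and 10.6 and 17.7 in P1 cKO, at 20.7 and 29.2 in P6 WT and 14.1 and 13.5 in P6 cKO, and at 25.7 and 27.0 in P8 WT and 23.7 and 17.6 in P8 cKO. The cKO libraries were below the WT libraries at each age, and the P6 difference was called (-0.86 ± 0.25, adjusted p = 0.0319). The P6 call was lost without P6 WT replicate 2 (-0.59, adjusted p = 0.188), P6 cKO replicate 1 (-0.89, adjusted p = 0.104) or P6 cKO replicate 2 (-0.82, adjusted p = 0.127). At P1 the difference was -0.92 ± 0.25 with an adjusted p of 0.0511, and 0.0164 without P1 cKO replicate 2. *Zrsr1*, a splicing factor relative, was 17.1 to 25.8 CPM and was lower at P8 by 0.49 on the log2 scale, at an adjusted p of 0.00428 and under 1.5-fold.

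The other members differed little. *Ago2*, the slicing Argonaute, ran from 159 to 215 CPM, *Impact*, an inhibitor of the amino acid sensor GCN2, from 116 to 164, *Blcap* from 48.8 to 60.1 and *Trappc9*, a vesicle-tethering subunit, from 37.9 to 58.3. None of these was called at any age, and among them adjusted p was below 0.05 for *Impact* at P8 (0.22 ± 0.04, adjusted p = 0.00315) and *Blcap* at P6 (-0.20 ± 0.07, adjusted p = 0.0496). *Nnat*, a proteolipid of the endoplasmic reticulum whose gene lies within *Blcap*, was at 1.75 to 5.58 CPM and *Nap1l5*, a nucleosome assembly relative, at 1.32 to 3.38 CPM, with no adjusted p below 0.05 between labels.

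**Figure D4:**
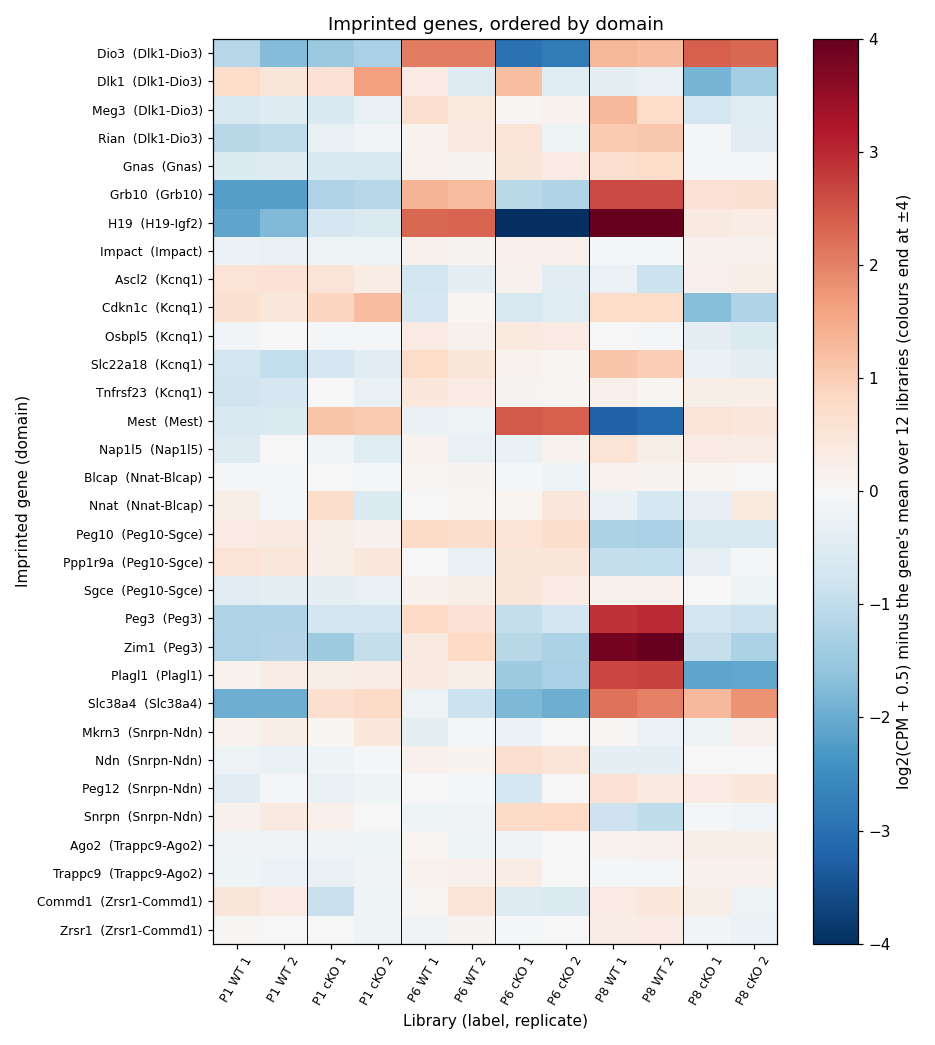
Log2(CPM + 0.5) of the 32 tested imprinted genes (rows, by domain) in 12 libraries (columns) relative to each gene's mean, in a colour scale that ends at 4 above and below it. *H19*, *Grb10*, *Peg3*, *Zim1* and *Plagl1* are darkest red in P8 WT, *Mest* is blue in P8 WT and red in P6 cKO, and rows such as *Ago2*, *Blcap* and *Impact* stay pale throughout.

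The members were also sorted by the allele that is usually expressed. Of 13 maternally expressed members, 3 were called higher and 0 lower at P1, then 1 and 3 at P6, then 1 and 6 at P8. Of 16 paternally expressed members, 2 were higher and 0 lower at P1, then 2 and 4 at P6, then 4 and 2 at P8. Among all genes, 4.01% were called higher and 0.892% lower at P1, then 7.16% and 6.38%, then 11.2% and 8.37%, and the difference between the alleles was not tested. The remaining 3 (*Gnas*, *Grb10* and *Blcap*) were sorted as mixed, since their allele depends on tissue or transcript. For the other members no fixed allele across tissues is meant by the sort. The sort does not show which allele any of the 32 members used in these cultures.

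Per length of the annotated exons, as CPM per kilobase, the highest mean over the 6 groups was that of *H19* at 76.1, with group means from 0.465 to 347, followed by *Gnas* at 70.3 (43.3 to 108), *Mest* at 47.7 (2.95 to 146) and *Grb10* at 46.4 (5.29 to 153). *Impact* came next at 28.1 with group means that lay within 1.38-fold of each other. At the other end were *Mkrn3* at 0.561, *Dlk1* at 0.441 and *Ascl2* at 0.43. By group means in CPM, 14 of the 32 members were highest in P8 WT, 7 in P6 cKO and 3 each in P1 WT, P1 cKO and P8 cKO. The same count was not made over all genes, so it describes the members only.

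The next question was how the members moved with age within each label. From P1 to P6, 12 of 32 rose and 2 fell in WT, where 23.1% of all genes were called, 12.2% upward and 10.9% downward. In cKO 6 rose and 5 fell, against 21.4% of all genes, 11% upward and 10.4% downward. *H19* rose in WT by 4.30 ± 0.17 on the log2 scale and fell in cKO (-4.39 ± 0.19). *Dio3* also parted, at 4.03 ± 0.35 in WT, whereas cKO went from 0.901 and 1.09 CPM to 0 and 0.0622. *Grb10* rose in WT by 3.53 ± 0.06 with no call in cKO, and *Mest* rose in cKO by 1.35 ± 0.06 with no call in WT. From P6 to P8, 8 rose and 4 fell in WT, against 18.9% of all genes, 8.66% upward and 10.3% downward. In cKO 5 rose and 10 fell, against 24% of all genes, 11.9% upward and 12.2% downward. Members that fell in both labels were *Mest* (-2.97 ± 0.06 in WT and -1.93 ± 0.06 in cKO), *Peg10* (-2.03 ± 0.07 and -1.27 ± 0.07), *Ppp1r9a* (-0.85 ± 0.13 and -0.68 ± 0.13) and *Snrpn* (-0.77 ± 0.10 and -0.89 ± 0.10). *H19*, *Grb10* and *Slc38a4* rose in both labels, while *Plagl1* rose in WT (2.40 ± 0.07) and fell in cKO (-0.77 ± 0.07). Both steps start or end at the P6 libraries, so that age, sex and culture cannot be told apart in them.

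Whether the difference between labels changed with age was tested by the interaction term. Between P1 and P8, which matched in sex-linked genes, the term had an adjusted p below 0.05 for 17 of 32 members, 4 with a higher and 13 with a lower difference at P8, against 25.7% of all genes, 14% with a higher and 11.7% with a lower one. The lower ones included *Zim1* (-5.67 ± 0.41, adjusted p = 8.82e-06), *H19* (-5.52 ± 0.22, adjusted p = 2.46e-07), *Plagl1* (-4.88 ± 0.10, adjusted p = 7.79e-09) and *Peg3* (-4.24 ± 0.12, adjusted p = 3.2e-08), and the higher ones were *Mest*, *Snrpn*, *Ppp1r9a* and *Peg10*. Between P1 and P6 the term passed for 13 members, 5 higher and 8 lower, against 15.3% of all genes, 7.12% higher and 8.19% lower. Between P6 and P8 it passed for 17 members, 6 higher and 11 lower, against 21.5% of all genes, 12.6% higher and 8.83% lower. At least 1 of the 3 terms passed for 21 members (65.6%), against 34.7% of all genes.

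Other imprinted genes, from a wider list of which 34 had a row, were also described by their calls: 8 higher and 2 lower at P1, 5 higher and 9 lower at P6, and 6 higher and 9 lower at P8, with medians of 0.08, 0.07 and -0.22. The shares called were 29.4%, 41.2% and 44.1% in order of age, beside 4.9%, 13.5% and 19.6% of all genes, and were not tested against those of the 32 members. *Dcn*, the matrix proteoglycan decorin made by fibroblasts, went from 9.12 and 8.55 CPM in P1 WT to 89.6 and 89.7 in P1 cKO, from 174 and 181 in P6 WT to 1.93 and 3.28 in P6 cKO, and from 1412 and 1480 in P8 WT to 45.7 and 44.7 in P8 cKO, the same turn as *H19*. *Begain* (1.07 ± 0.19, -1.58 ± 0.19 and -1.68 ± 0.19) and *Tfpi2* (2.64 ± 0.67 and -4.23 ± 0.86, with no call at P8) also turned after P1. Lower at P6 and P8 with no call at P1 were *Adam23* (-1.61 ± 0.19 and -1.35 ± 0.19), *Airn* (-1.51 ± 0.31 and -0.97 ± 0.29), *Zdbf2* (-1.98 ± 0.16 and -1.04 ± 0.15) and *Mirg* (-1.07 ± 0.24 and -1.42 ± 0.24), a noncoding neighbour of *Rian*. Higher in cKO at all ages were *Ampd3* (1.01 ± 0.06, 1.48 ± 0.07 and 0.99 ± 0.06) and *Rasgrf1* (0.86 ± 0.10, 2.20 ± 0.10 and 1.54 ± 0.11), an exchange factor for Ras, and *Atp10a* was higher at P6 and P8 (0.68 ± 0.10 and 0.89 ± 0.10). *Cobl*, *Gatm*, *Htr2a* and *Tspan32* were called at 2 ages each, *Htr2a* higher at both and the others in opposite directions. *Igf2r*, the receptor that clears IGF2, was higher in cKO at P1 (0.67 ± 0.05, adjusted p = 6.63e-05) and not called later.

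Genes with links to imprints, DNA methylation or chromatin were the last group, and not all of them set or keep imprints. Of 28 measured, edgeR called 0 at P1, 2 lower at P6 (*Tet1* and *Zfp57*) and 1 lower at P8 (*Tet1*), shares of 0%, 7.14% and 3.57% beside 4.9%, 13.5% and 19.6% of all genes. DESeq2 called 0 at P1, 4 lower at P6, and 1 higher and 2 lower at P8. An unadjusted p below 0.05 was reached by 4 genes at P1 (all lower), by 2 higher and 11 lower at P6, and by 7 higher and 7 lower at P8. The shares of all genes under DESeq2 or at an unadjusted p were not computed, so these counts have no background beside them. The median log2 differences of the 28 were 0.00, -0.09 and -0.01. *Tet1*, which oxidises methylcytosine, was at 19.7 and 26.5 CPM in P8 WT and 4.69 and 3.86 in P8 cKO (-2.43 ± 0.24, adjusted p = 4.5e-05), and its P6 value was -1.36 ± 0.24 (adjusted p = 0.00268). *Zfp57*, the zinc finger protein that holds methylation at imprinted control regions, was at 12.8 and 21.7 CPM in P6 WT and 3.55 and 4.71 in P6 cKO (-2.06 ± 0.40, adjusted p = 0.00461) and was not called at P8 (-0.74 ± 0.38, adjusted p = 0.179). *Trim28*, the corepressor that ZFP57 recruits, ran from 117 to 159 CPM, *Dnmt1*, the maintenance methyltransferase, from 105 to 164, *Uhrf1*, its guide to replicated DNA, from 30.9 to 64.3, and *Ctcf*, the insulator protein of the H19-Igf2 control region, from 55.5 to 74.2. None of these 4 was called at any age. *Dnmt1* and *Uhrf1* were lower in P6 cKO by less than 1.5-fold (-0.40 ± 0.05, adjusted p = 0.000183, and -0.44 ± 0.07, adjusted p = 0.00192).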

How the data were processed

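RNA was measured in 12 libraries of cultured astrocytes, grouped by the genotype and age in their labels. Per the labels and the study's methods, the authors captured mRNA and mapped reads to GRCm38 (mm10) with HISAT2, and deposited raw counts per gene. The sources used here give neither the counting program nor its strand setting. Totals ran from 54413504 to 89183250 counts per library, and precision is limited by 2 libraries a group. Gene coordinates and exon lengths came from GENCODE M21.

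Counts were tested with edgeR 4.0.16 (R 4.3.3): filterByExpr, TMM scaling and a quasi-likelihood fit of 6 groups over all 12 libraries, with Benjamini-Hochberg adjustment over 17938 genes. A call needed a fold change of at least 1.5 with an adjusted p below 0.05, or the adjusted p alone for interaction terms. CPM used effective library sizes. Replicates of a group differed by more than sampling noise and were kept apart. An exact permutation test of 2 against 2 cannot go below p = 0.333 and was not used. Per-library values were given for each member called in a comparison of labels. Other imprinted and imprint-linked genes were named where called at 2 ages, with a few regulators named always. *Kcnq1ot1*, one of these, had no row. The members and lists were chosen with earlier results of these data known. Alternatives were DESeq2 1.42.0, its size factors, no filter, fits on the compared groups alone, a replicate block, each library left out in turn, unadjusted p-values and a fold change of 2.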

Additional observations from a re-analysis of the deposited data

Results flagged for a closer look

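Interaction terms of the edgeR fit (the cKO over WT log2 difference at the later age minus that at the earlier age, adjusted p below 0.05) marked 21 of the 32 members (65.6%) as differing between ages in at least 1 of 3 terms, where 34.7% of all genes were marked. With 2 libraries a group, no library was tested for standing apart. The P6 libraries differ from the others in sex-linked genes, so that age and sex cannot be told apart in the P6 terms.

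*H19* had terms of -8.68 (P1 to P6), -5.52 (P1 to P8) and 3.16 (P6 to P8). In the same order, *Grb10* had -3.46, -3.06 and 0.40, *Peg3* -2.02, -4.24 and -2.23, *Plagl1* -1.71, -4.88 and -3.17, and *Zim1* -2.17, -5.67 and -3.50. *Mest* had positive terms throughout (1.00, 2.04 and 1.04), since the distance between its labels widened at each age. *Gnas* had 0.35, -0.68 and -1.03. *Slc38a4* had -15.22, -11.05 and 4.17, of which the first 2 are fitted values that depend on the prior count because P1 WT had no counts, and the third rests on 4 counts in P6 cKO.

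From P1 to P6 and from P1 to P8, *Snrpn* had terms of 1.10 and 0.99, *Ppp1r9a* 0.79 and 0.97, and *Tnfrsf23* -0.90 and -0.51. From P1 to P8 and from P6 to P8, *Cdkn1c* had -3.24 and -2.29, *Meg3* -1.79 and -1.23, *Rian* -2.20 and -1.27, *Slc22a18* -2.07 and -1.05, *Osbpl5* -0.43 and -0.54, and *Peg10* 0.78 and 0.76. *Dio3* had -8.96 from P1 to P6 and 10.01 from P6 to P8, both resting on 4 counts in P6 cKO. *Ndn* had 0.37 from P1 to P6 alone, and *Sgce* -0.48 and *Zrsr1* -0.47 from P6 to P8 alone.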

How the results depend on the processing

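Across 187 recounts of the called members in 10 comparisons, 185 stayed within 1.5 times the reported number. The 2 others came from asking for a 2-fold change, which left 7 members in place of 11 for cKO from P1 to P6 and 8 in place of 15 for cKO from P6 to P8. With single libraries left out, counts ran from 4 to 7 at P1, 9 to 11 at P6 and 14 to 16 at P8 between labels, from 13 to 14 (P1 to P6) and 10 to 14 (P6 to P8) in WT, from 10 to 12 and 11 to 15 in cKO, and from 11 to 13, 15 to 18 and 13 to 18 for the interaction terms of P6 against P1, P8 against P1 and P8 against P6. An alternative chosen after seeing the data left out all 4 P6 libraries and gave 6 members at P1, 16 at P8 and 18 for P8 against P1.

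The 32 called differences between labels kept direction and call in 603 of 629 alternatives, lost the call in 26 and reversed in 0. The unadjusted p and 2-fold settings only moved the threshold of the same fit. Neither could reverse a direction, and the unadjusted p could not lose a call. Most fits with a library left out dropped one of another age than the difference concerned. Lost calls concerned *Rian* and *Tnfrsf23* at P1, *Commd1*, *Ppp1r9a* and *Snrpn* at P6, and *Dio3*, *Gnas*, *Peg10*, *Ppp1r9a* and *Snrpn* at P8, those of *Snrpn*, *Gnas* and *Peg10*, and of *Ppp1r9a* at P8, only when a 2-fold change was asked for. *Tnfrsf23* at P1 had an adjusted p of 0.0606 in the fit on the P1 groups alone. Leaving out a P6 library moved *Dio3* at P6 between -13.04 and -7.93 and *Slc38a4* at P6 between -8.88 and -3.80, where 1 cKO library has no count. Another 13 alternatives called *Commd1* at P1 or *Ascl2* or *Dlk1* at P8. Of 61 differences that no fit called, 23 changed sign somewhere, none above 0.75 in size in the reported fit. The cause of these changes was not tested.

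With the replicate number as a block, 6, 11 and 15 members were called at P1, P6 and P8, and 16 in place of 17 for P8 against P6. Correlations of deviations between same-numbered libraries lay between -0.0627 and 0.0442, so no pairing by number showed over all genes tested. A pairing that touches only some genes cannot be seen in such correlations.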

Other observations

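Lists of other cell types gave the following counts of called genes between labels at P1, P6 and P8. Among all genes, 4.9%, 13.5% and 19.6% were called in either direction, in that order. Only listed genes with a row are counted. Of 10 astrocyte markers, 1 was higher at P1, 1 lower at P6 and 5 lower at P8. Of 8 microglia markers, 2 were lower at P1, 1 lower at P6, and 5 higher and 1 lower at P8. Of 4 endothelial markers, 2 were higher at P1, 3 lower at P6, and 1 higher and 2 lower at P8. Of 5 mural markers, 2 were higher at P1, 3 lower at P6 and 2 lower at P8. Of 6 oligodendrocyte lineage markers, 0 were called at P1, 2 were lower at P6, and 1 was higher and 2 lower at P8. Of 3 neuron markers, 1 was higher at P1, 2 higher at P6 and 1 higher at P8. Of 5 ependymal and choroid plexus markers, 1 was higher at P1, 2 were higher and 1 lower at P6, and 2 higher and 1 lower at P8.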
